A study of Homo sapiens with 36 samples.

Results

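PHF19 occupancy was described over input in DU145 cells, an established human prostate cancer line, that carried a control short hairpin RNA (shCTR). The regions are all 1245 of the deposited table in which the authors compared 2 PHF19 ChIP libraries of shCTR cells with 2 shCTR inputs, and none was left out. They were read beside the 15290 peaks of the replicate lists, 1072 in replicate 1 and 14218 in replicate 2, each called on its own library. The study as a whole followed PHF19 and Polycomb proteins in control cells and in cells depleted of the long PHF19 isoform, and the depleted cells were not used here. ChIP-seq reads the DNA that an antibody against PHF19 pulls down from fixed chromatin, and the input is the same chromatin without the pull-down.

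PHF19 is one of the Polycomb-like proteins, a family with MTF2 and PHF1, that bind the Polycomb repressive complex PRC2 and bring it to chromatin. PRC2, with the catalytic subunit EZH2 and the core subunit SUZ12, places H3K27me3 on histones of silenced developmental genes, and PRC1, with the CBX proteins, reads this mark. The winged-helix part of Polycomb-like proteins binds unmethylated CpG-rich DNA with the letters GCG, and EZH2 is abundant in advanced prostate cancer.

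The PHF19 libraries stood apart before any comparison. The replicate 2 list held more peaks and covered 16.8 Mb, against 2.13 Mb in replicate 1, and only the replicate 2 ChIP was made with an added antibody against a fly histone. A replicate 1 peak carries a number of tags and a replicate 2 peak a MACS score, so their values are on separate scales. The depth of the libraries is unknown. Enrichment is the authors' mean log2 read concentration of a region in the ChIP minus that in the input. No value per replicate was given, so the enrichments carry no SD, and the main results are given for all regions and for the 746 with a peak in both lists. An exact two-sided permutation test of 2 against 2 libraries could not fall below P = 0.333, and none was run.

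Sequences are shown first for regions at the top of the list, because they differ in kind. All are from the forward strand of GRCh37, read 5′ to 3′, and capitals mark GCG and CGC, the same letters on the other strand. The ATF3 window (chr1:212779529-212779828) lies in an intron and the FOXI3 window (chr2:88752212-88752511) outside genes beside the start site. The FOXD4L5 window (chr9:69786496-69786795) and the ZNF92 window (chr7:64974592-64974891) lie between genes and are named only by the nearest protein-coding start, and the ZIC2 window (chr13:100647933-100648232) lies in an exon of the noncoding gene LINC00554. The GATA2 amplicon (chr3:128211080-128211274), in an intron, is a ChIP-qPCR site that the study used as a negative control.
ATF3: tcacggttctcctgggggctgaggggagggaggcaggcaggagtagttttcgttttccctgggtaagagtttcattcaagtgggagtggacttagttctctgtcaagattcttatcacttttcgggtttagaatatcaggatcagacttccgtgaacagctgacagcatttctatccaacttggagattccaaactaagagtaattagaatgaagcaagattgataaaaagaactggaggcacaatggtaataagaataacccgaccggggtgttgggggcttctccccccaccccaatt
FOXI3: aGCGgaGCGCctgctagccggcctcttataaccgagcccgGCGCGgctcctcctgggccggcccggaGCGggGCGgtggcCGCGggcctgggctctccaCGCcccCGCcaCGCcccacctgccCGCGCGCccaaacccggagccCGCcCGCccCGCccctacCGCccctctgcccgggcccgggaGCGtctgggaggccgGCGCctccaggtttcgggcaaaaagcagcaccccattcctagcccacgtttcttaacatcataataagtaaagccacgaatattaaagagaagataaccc
FOXD4L5: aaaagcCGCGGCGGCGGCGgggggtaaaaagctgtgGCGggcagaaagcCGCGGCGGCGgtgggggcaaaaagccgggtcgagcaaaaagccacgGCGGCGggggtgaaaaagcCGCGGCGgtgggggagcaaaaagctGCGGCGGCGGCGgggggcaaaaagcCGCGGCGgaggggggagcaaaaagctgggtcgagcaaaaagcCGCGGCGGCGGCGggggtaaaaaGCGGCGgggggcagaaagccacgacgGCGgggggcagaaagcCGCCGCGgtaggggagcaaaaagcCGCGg
ZNF92: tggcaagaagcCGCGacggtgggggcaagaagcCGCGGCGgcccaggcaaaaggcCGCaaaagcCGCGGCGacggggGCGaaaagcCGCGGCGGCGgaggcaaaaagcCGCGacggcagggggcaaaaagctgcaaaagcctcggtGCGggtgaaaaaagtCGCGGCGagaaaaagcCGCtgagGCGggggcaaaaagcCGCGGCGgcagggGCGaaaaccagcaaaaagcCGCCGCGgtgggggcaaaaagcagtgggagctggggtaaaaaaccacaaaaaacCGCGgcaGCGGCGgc
ZIC2: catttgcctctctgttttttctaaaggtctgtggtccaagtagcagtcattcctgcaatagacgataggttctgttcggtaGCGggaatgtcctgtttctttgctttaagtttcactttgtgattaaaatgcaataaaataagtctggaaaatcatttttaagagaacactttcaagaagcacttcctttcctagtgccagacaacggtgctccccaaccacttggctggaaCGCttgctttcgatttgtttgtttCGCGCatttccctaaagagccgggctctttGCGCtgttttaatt
GATA2 amplicon: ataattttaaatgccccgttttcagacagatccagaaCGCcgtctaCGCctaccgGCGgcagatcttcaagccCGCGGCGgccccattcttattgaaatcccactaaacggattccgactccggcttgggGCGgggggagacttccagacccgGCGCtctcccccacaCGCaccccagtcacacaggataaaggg

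The FOXI3 window held 25 copies of GCG or CGC. The ATF3 window, at the centre of the promoter region with the highest enrichment, held 0, and the ZIC2 window held 7. The ATF3 ChIP-qPCR amplicon in the same 4664 bp region held 2 copies, so the region as a whole is not without these letters. The FOXD4L5 and ZNF92 windows held 35 and 33 copies in a tandem array. The GATA2 amplicon held 10 copies in 195 bases, with a CpG ratio (CpG observed over that expected from the base composition) of 0.99, and the nearest region lay 1355695 bp away. Over all 1245 regions 94.7% of the central 300 bases held GCG or CGC, against 91.1% of 78500 windows at protein-coding start sites, so these letters were common to both.

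The 4 regions with the highest enrichment shared 1 repeat. The 12-base word counted most often in them on either strand, aaaaagccgcgg, occurred 72 times in these regions and 647 times in the genome. In the other 1241 regions, whose words were not counted to pick it, 6 more held 5 or more copies, with enrichments from 2.83 to 3.72. These 6 had a median enrichment of 2.93, against 1.58 over the 1235 regions with fewer copies. All 10 such regions were distal, and the other 4 were searched because they were the highest. The region near NBPF16 (chr1:148853892-148855952) held 17 copies at an enrichment of 3.72. A pair near ANKRD30BL on chromosome 2 had 3.31 with 5 copies and 2.99 with 11 copies. Of the 44 places in the genome with 5 or more copies within 1 kb of each other, 10 (22.7%) had a region of the table, so most had none. Each of these 10 regions had a PHF19 peak in both replicate lists. The repeat was seen in the printed windows and searched for afterwards, and its word rule was the second of 2 tried. An earlier rule that asked for all 4 bases shut out this unit, which has no T, and found 2 regions. The second rule was chosen after that count over all regions was seen, so the regions outside the 4 are no independent check. Reads that map to several places were discarded by the authors, and the part of this in values over repeats was not tested.

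Over all regions the median enrichment was 1.58 on the log2 scale, with 5th and 95th percentiles of 1.08 and 2.92. The range was 0.85 to 4.80, with 319 regions (25.6%) at 2 or more, 51 (4.10%) at 3 or more and 7 at 4 or more. The table lists only regions that the authors kept as enriched, so its lower end is theirs. Regions had a median width of 2298 bp and covered 3.38 Mb. Enrichment and width were only weakly related, with a Spearman rho of 0.14 over 1245 regions, which are not independent of each other. The rho was 0.21 in promoter regions and -0.02 in distal regions. The 311 widest regions had a median enrichment of 1.86, and the 311 narrowest had 1.52. The 10 widest regions ran from 0.95 to 3.38.

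**Figure D1:**
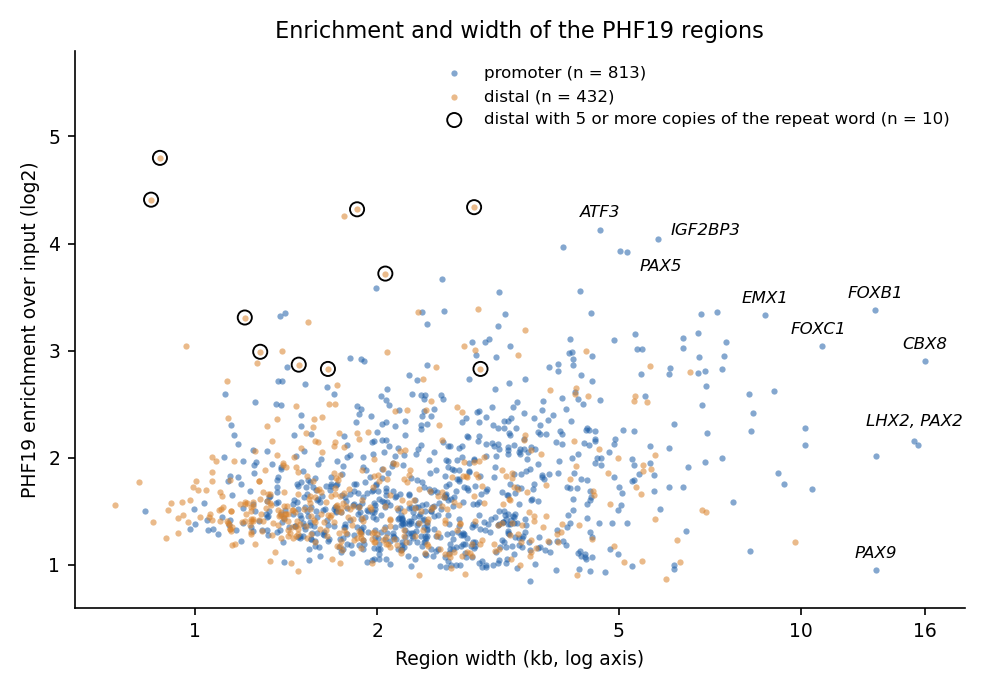
Enrichment over input (log2) against width (kb, log axis) of the 1245 PHF19 regions, in blue for 813 promoter and orange for 432 distal regions, with rings on the 10 regions with 5 or more copies of the repeat word. The widest region, over CBX8, is 16001 bp wide at 2.90, and PAX9 is among the widest at 0.95.

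The highest enrichment, 4.80, belonged to an 875 bp region (chr9:70151797-70152671) between genes, 26581 bp from the FOXD4L5 start site. Its input concentration, 0.75, was low, and its own peaks were modest, with 41 tags in replicate 1 and a score of 298 in replicate 2. The next regions were near FOXD4L4 (chr9:70402710-70403555) at 4.41, a second near FOXD4L5 (chr9:69785202-69788089) at 4.34 and near ZNF92 (chr7:64973817-64975667) at 4.32. The 3 regions on chromosome 9 lay 66058 to 222453 bp from a gap in the assembly, and 5 of the 10 highest regions lay within 1 Mb of a gap, against 18 of the 100 highest and 12.9% of all regions. The fifth, at 4.26, lay in LINC00554, 14045 bp from ZIC2 (chr13:100647204-100648961), and had 33 tags in replicate 1 beside a score of 1967 in replicate 2.

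Promoter regions of named regulators followed among the 10 highest. ATF3, a stress-induced transcription factor, had 4.13 over 4664 bp (chr1:212777347-212782010), and the midpoint lay 2424 bp from the nearest start site. IGF2BP3, an RNA-binding protein of fetal tissue and tumours, had 4.04 over 5813 bp. The forkhead gene FOXI3 had 3.97 over 4046 bp (chr2:88750312-88754357). PAX5, the B cell factor, had 3.92 over 5173 bp (chr9:37033519-37038691). These 4 were strong in both libraries, with 260 (FOXI3) to 871 (PAX5) tags in replicate 1 and a score of 3100 in replicate 2. At the other end, CDH22 (0.85), a region in SLC9A3 named by EXOC3 (0.87) and one at C19orf25 (0.91) had the lowest enrichments. These were picked out after their values were seen.

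The widest regions covered promoters. CBX8, a PRC1 subunit, had the widest, 16001 bp (chr17:77771255-77787255), at an enrichment of 2.90. PAX2, a factor of kidney development, had 15619 bp at 2.12, and the LIM homeobox gene LHX2 had 15369 bp at 2.16. NEUROD2, PAX9 and the forkhead gene FOXB1 had 13291, 13280 and 13263 bp, with enrichments of 2.02, 0.95 and 3.38. FOXC1 (10851 bp), the netrin receptor gene UNC5B (10421 bp), GATA3 (10156 bp) and FOXB2 (10153 bp) completed the 10 regions of at least 10 kb. All 10 overlapped a start site, and among the 90 regions of at least 5 kb 70 were promoter regions and 20 distal. Several of these regions spanned more than 1 peak, with 4 replicate 1 peaks and 1 replicate 2 peak in the FOXB1 region. Support for the 5 narrowest regions was uneven. The repeat region of 846 bp near FOXD4L4 had 95 tags and a score of 1411. In NPAS3, a brain transcription factor gene, regions of 738 and 853 bp had no PHF19 peak in either list, and neither did one of 809 bp in EGLN3. A region of 828 bp at EYA1 had a peak only in replicate 2.

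Concentrations rise with width, with a Spearman rho of 0.90 for the ChIP and 0.88 for the input over 1245 regions. The highest log2 ChIP concentrations, not per length, were at CBX8 (10.95), at TCHH, the hair follicle protein trichohyalin (10.81), at FOXB1 (10.76) and at PAX5 (10.68). Per kb the ChIP concentration was highest at PAX5 (8.31), a ranking added after the values were seen. CBX8, first without regard to length, was at 6.95 per kb. The highest input concentrations were at PAX9 (8.86), NPAS3 (8.26), CBX8 (8.05), PAX2 (7.96) and TCHH (7.73). PAX9 had both the highest input and an enrichment of only 0.95, though its ChIP concentration was 9.81. Over all regions enrichment fell as input per kb rose, with a rho of -0.49, and both measures contain the input.

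Promoter regions, those that overlap the 2.5 kb to either side of a protein-coding start site, numbered 813 of 1245 (65.3%, exact binomial 95% interval 62.6 to 67.9). The remaining 432 (34.7%) are called distal. Intervals here cover counting error only, and regions are not replicates. Among the regions with a peak in both lists the promoter share was 74.1%. Of the promoter regions 684 lay over a start site and 129 beside one. Their midpoint lay a median of 132 bp downstream of the nearest start, on the transcribed side in 497 of them (61.1%). Of the distal regions 151 were inside a protein-coding gene and 281 between such genes, and 118 (27.3%) reached such a window when each annotated gene of any type was given 1 start. Those starts do not include every transcript start, and 720 of the 813 promoter regions reached them too.

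Promoter regions had a median enrichment of 1.63 (95% interval of the median 1.58 to 1.68) and distal regions 1.53 (1.50 to 1.57). The intervals did not overlap, but the difference was small beside the spread within each class, whose 5th and 95th percentiles were 1.07 and 2.94 for promoter and 1.11 and 2.85 for distal regions. Width separated the classes more, with medians of 2483 bp (2397 to 2616) and 1858 bp (1741 to 1973). With a peak in both lists the medians were 1.80 and 1.73 for enrichment and 2899 and 2380 bp for width. Distal regions inside genes had the lowest median enrichment, 1.46, and those between genes had 1.58. Without the 10 repeat regions the distal median was 1.52.

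Replicate support differed by class. Of all 1245 regions 784 (63.0%) had a replicate 1 peak, 1196 (96.1%) a replicate 2 peak and 746 (59.9%) both. Promoter regions had both in 68.0% and distal regions in 44.7%. Regions in both lists had a median enrichment of 1.79 and a width of 2778 bp, and the 450 with a replicate 2 peak only had 1.40 and 1793 bp. The 38 with a replicate 1 peak only were mostly distal, 31 against 7 at promoters, and poor in CpG, with a median ratio of 0.25. The 11 regions in neither list were all distal.

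The strongest peaks were shared. All of the 100 peaks with most tags in replicate 1 overlapped a replicate 2 peak, and all of the 100 with the highest score in replicate 2 overlapped a replicate 1 peak. At the top 1000 of replicate 2 the share was 64.5%, and over its whole list it was 5.87%, while 78.9% of the replicate 1 list overlapped a replicate 2 peak. TCHH led replicate 1 with 1035 tags, and PAX5 (871), CBX8 (851) and IGF2BP3 (832) were among the 5 strongest. In replicate 2 ENTREP2 came first with a score of 3200.2, then FOXB2 (3138), PRDM12 (3132), the iron exporter gene SLC40A1 (3131) and C3orf70 (3109.5). The same 5 had 141, 534, 253, 133 and 210 tags in replicate 1. The score has a ceiling near 3100, a value that 47 peaks carry and 5 exceed, and 52 regions were at or above it. TCHH, PAX5 and IGF2BP3 were at 3100, so the order at the top of the score cannot be compared with that of the tags. Tags and score had a Spearman rho of 0.81 over the 746 regions with both, which share the genome but not the library.

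**Figure D2:**
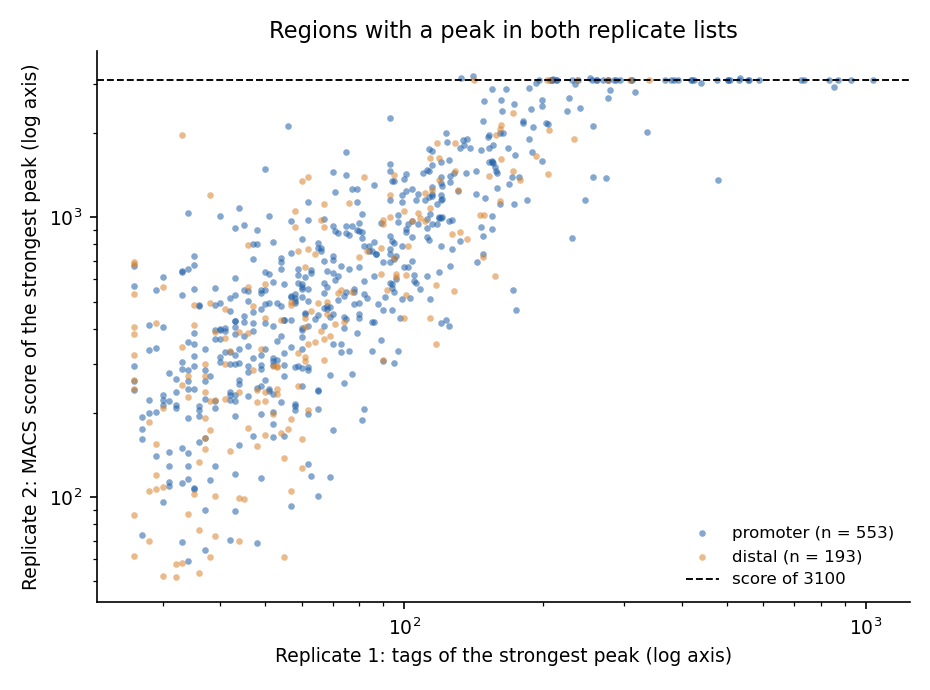
Tags of the strongest replicate 1 peak against the MACS score of the strongest replicate 2 peak (both log axes) in the 746 regions with a peak in both lists, 553 promoter in blue and 193 distal in orange. The points rise together until the score reaches 3100 (dashed line), where tags still run on to 1035.

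Genes with a region at a promoter numbered 805 of 19821 protein-coding genes (4.06%), and 2.84% with regions in both lists. Families of developmental transcription factors are set beside this background. Among paired-box genes 6 of 9 had a region, namely PAX5 (3.92), the eye factor PAX6 (2.49), the muscle factor PAX7 (2.34), PAX2 (2.12), PAX4 (1.00) and PAX9 (0.95). GATA factor genes had 4 of 6, led by GATA6 at 2.45 and GATA3 at 2.28, with GATA4 at 1.52 and GATA5 at 1.25. Homeobox genes outside the HOX clusters had the most by number, 62 of 168 (36.9%, 29.6 to 44.7), and 46 of them with a peak in both lists. Among the strongest were EMX1 (3.33), IRX5 (2.81) and the genome organiser SATB1 (2.74). PAX6, PAX7 and PAX4 are counted in the homeobox list as well as among the paired-box genes. The HOX clusters themselves had 4 of 39 (10.3%), with HOXD12 at 2.46, HOXD13 at 2.25 and HOXD11 at 1.72 side by side on chromosome 2, and HOXB8 at 1.37.

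Forkhead genes had 13 of 52 and a median enrichment of 2.12 over wide regions of 4046 bp, against 1.63 and 2529 bp over all genes with a region. Besides FOXI3, FOXB1 and FOXC1 (3.04), the speech-linked gene FOXP2 had 2.78. SOX genes had 6 of 20, with the pluripotency factor SOX2 at 3.35, SOX21 at 2.37 and the cartilage factor SOX9 at 2.32. The list of neural bHLH genes also holds the heart factor HAND1. Genes of this list had 9 of 29, with OLIG1 at 2.78, NEUROG2 at 2.61, HAND1 at 2.09 and NEUROD2 at 2.02. Their share of 31.0% was 17.2% without replicate 2, when that of all genes was 2.87%, and 20.7% with a window of 1 kb. T-box genes had only TBR1 (2.33) and TBX2 (1.74) of 17, and ZIC and GLI genes had GLI3 (1.81), ZIC2 (1.80) and ZIC5 (1.79) of 11. The interval of the share lay above 4.06% in each of these families except the HOX genes (2.87 to 24.2) and the T-box genes (1.46 to 36.4). In both lists the HOX interval lay just above the 2.84% of all genes, and with regions up to the gene end the HOX share was 15.4% (5.86 to 30.5) against 4.68%. With a window of 1 kb the ZIC and GLI share was 18.2% (2.28 to 51.8), which holds the 3.86% of all genes.

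Signalling genes had regions at ligands and antagonists, with intervals above 4.06% in each list of this paragraph except the last. BMP ligands and antagonists had 7 of 24, with BMP4 at 3.02 well above the others, the antagonist FST at 2.13, BMP2 at 1.97 and CHRD at 1.69. In the Notch pathway 8 of 22 had a region, and the target genes HEY1 (2.85) and HEY2 (2.40) stood beside the ligand DLL1 (2.60), with HES3 at 1.61. All 3 Hedgehog ligands, SHH (2.11), IHH (1.63) and DHH (1.36), were among the 4 of 14 in that pathway, with GLI3. WNT genes had 7 of 43, the highest being WNT6 (2.60), WNT7A (2.14), the antagonist WIF1 (1.62) and the receptor FZD8 (1.35). Fibroblast growth factor genes had 4 of 22, FGF9 at 2.95 and FGF18, FGF8 and FGF11 between 1.04 and 1.18. Ephrin and Eph receptor genes had the ligands EFNA3 (1.96) and EFNB2 (1.73) of 22, a share of 9.09% (1.12 to 29.2) that could not be told from 4.06%. Without replicate 2 the Notch share of 36.4% was 18.2%, the WNT share of 16.3% was 9.30% (2.59 to 22.1) and the fibroblast growth factor share of 18.2% was 9.09% (1.12 to 29.2), with the same values for regions in both lists. The share of all genes was then 2.87% and 2.84%, so the WNT and fibroblast growth factor shares could no longer be told from it.

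PRC1 genes were among those with a region. Of 20 PRC1 genes 4 had one, among them BMI1 at 3.32, CBX8 at 2.90 and CBX2 at 2.35. Of 15 PRC2 subunit and accessory genes only EPOP, whose product binds PRC2 with Polycomb-like proteins, had a region, at 1.49, and the share of 6.67% (0.169 to 31.9) could not be told from 4.06%. Insulin-like growth factor binding and mRNA-binding protein genes had 4 of 10, IGF2BP3, IGFBP3 (1.99), IGF2BP1 (1.69) and IGFBP5 (1.53). AP-1 and ATF genes had only ATF3 and MAFA (3.02) of 24, a share of 8.33% whose interval also holds 4.06%.

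The remaining lists hold matrix, signalling, channel and control genes. Collagen genes had 8 of 44, led by COL8A1 (2.59), with COL4A1 and COL4A2 sharing 1 region (2.05) and COL2A1 at 1.72. ADAMTS genes had 4 of 19, ADAMTS9 (1.67), ADAMTS6 (1.62), ADAMTS16 (1.38) and ADAMTS8 (1.38), and dual specificity phosphatase genes 3 of 24, DUSP4 (3.17), DUSP15 (1.63) and DUSP6 (1.15). Hypoxia and angiogenesis genes had 5 of 20, ADM at 2.28, CXCR4 at 1.74, LOX at 1.54, EGLN3 at 1.52 and EPAS1 at 1.43. The study had already named ADM, CXCR4, LOX and EGLN3 as direct PHF19L targets from the same ChIP-seq. Lists and members were chosen with earlier results known, so the share of hypoxia genes is no independent comparison with all genes. Prostate lineage and androgen-regulated genes had KLK4 (1.55) and TMPRSS2 (1.19) of 14. Voltage-gated potassium channel genes had 3 of 39, KCNH2 (1.14) and KCNQ3 (1.12) among them. The intervals of the phosphatase (2.66 to 32.4), prostate (1.78 to 42.8) and channel genes (1.62 to 20.9) hold 4.06%. Without replicate 2, and in both lists, their shares of 12.5%, 14.3% and 7.69% were 8.33%, 7.14% and 2.56%, and the ADAMTS share of 21.1% was 10.5% (1.30 to 33.1), which could no longer be told from all genes. No region reached the 2.5 kb window at any of 8 cell cycle inhibitor genes, 53 clustered protocadherin genes, 86 ribosomal protein genes or 381 olfactory receptor genes. Upper 95% limits were 6.72% for the protocadherins, 36.9% for the cell cycle inhibitors and 4.20% for the ribosomal protein genes, so none of these counts could be told from the background. With regions up to the gene end the ribosomal limit lay below the 4.68% of all genes. The limit was 0.964% for the olfactory receptor genes, whose share was 0.262% with windows up to the gene end. OR2I1P, left out of that list because its symbol ends in P, had a promoter region at 1.86.

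**Figure D3:**
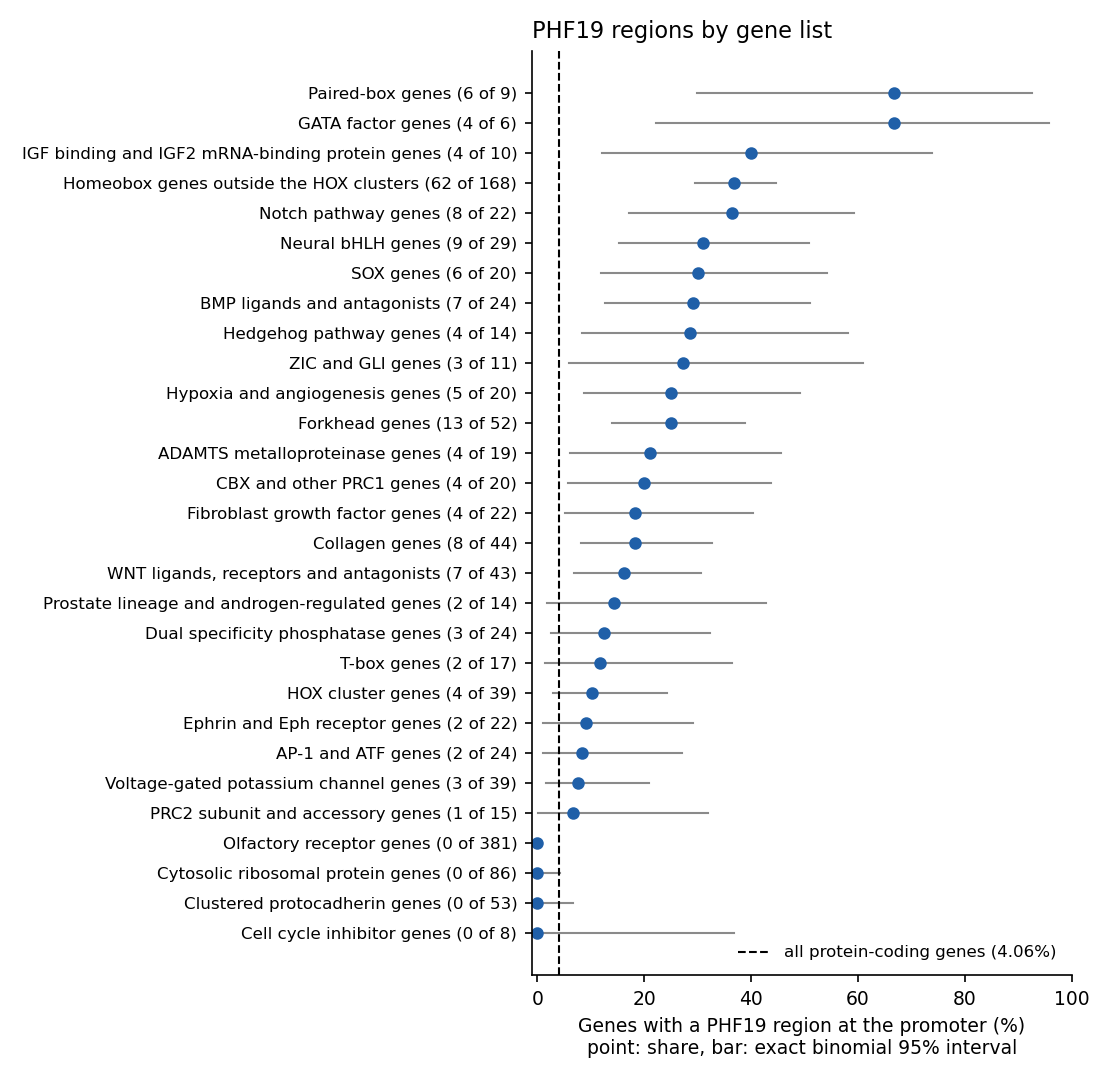
Share of genes with a PHF19 region at the promoter (%) in each of 29 gene lists, with exact binomial 95% intervals as bars and the counts beside the names. The dashed line is the 4.06% of all protein-coding genes, and the paired-box, GATA and homeobox lists lie to its right.

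Sites that the study amplified in ChIP-qPCR were located in the genome by both primers. The study picked 8 as binding sites of PHF19 and 2, GATA2 and Int_14, as negative controls, so that 8 of the 10 lay in a region follows that choice. The ATF3 amplicon lay in the region at 4.13, the sixth of all. DUSP4, a MAP kinase phosphatase gene, was at 3.17, MLLT6 at 3.11, and the vitamin D hydroxylase gene CYP24A1 was at place 134 of 1245. IGFBP3 (1.99), EFNA3 (1.96) and the oxygen sensor gene EGLN3 (1.52) were weaker, and EGLN3 was only at place 694 of 1245. EGLN3 was also the 1 site of the 8 whose region had no EZH2 or SUZ12 peak in any list, with H3K27me3 peaks in both. By ChIP-qPCR at a subset of PHF19L targets the study reported EZH2 and H3K27me3 in control cells. A missing peak therefore does not show that EZH2 is absent at EGLN3. The GATA2 site and the site between genes on chromosome 14 (Int_14) had no region and no peak in any PHF19, EZH2, SUZ12, H3K27me3 or MTF2 list, and the nearest regions lay 1355695 and 565532 bp away.

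CpG content set the regions apart from their surroundings. The median CpG ratio was 0.66 (0.64 to 0.67) in regions and 0.22 in windows of the same length 10 kb to either side, and 1060 of 1245 regions were above both of their windows. Promoter regions had 0.70 and distal regions 0.51. A ratio of at least 0.6 was found in 76.3% of promoter regions, 33.1% of distal regions and 3.74% of windows beside regions. The distal class was mixed, with 5th and 95th percentiles of 0.14 and 0.87. In the central 300 bases the median ratio was 0.68 over all regions and 0.75 in promoter regions. It was 0.71 at protein-coding start sites, and also 0.71 at those of genes without a region. A ratio of at least 0.6 was found in 61.2% of region centres and 58.2% of start site windows, so high CpG was common to both. The median number of GCG or CGC in such windows was 15 in promoter regions, 5 in distal regions, 13 at protein-coding start sites and 1 in windows 10 kb away. The 10 repeat regions had ratios from 0.87 to 1.28. The AP-1 letters TGANTCA were in 3.78% of region centres, 5.51% of start site windows and 9.20% of windows 10 kb away. A match describes letters only.

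**Figure D4:**
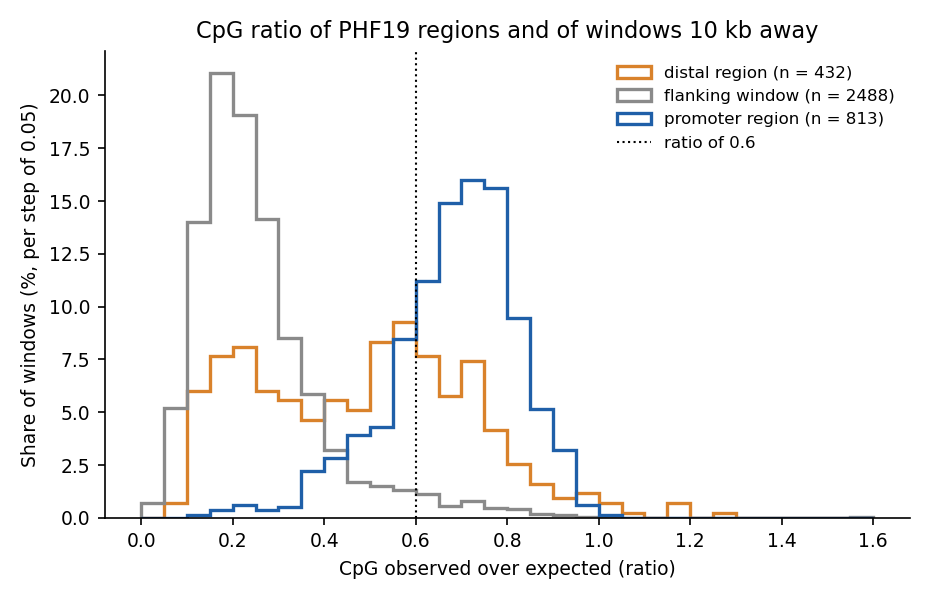
Distribution of the CpG ratio (observed over expected, steps of 0.05, in % of each class) in 813 promoter regions, 432 distal regions and 2488 windows 10 kb away. Promoter regions centre on 0.70, windows on 0.22, and distal regions spread over both.

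The other Polycomb lists of the same cells were laid over the regions, each replicate by itself because list lengths differ. EZH2 peaks, 2060 in replicate 1 and 1236 in replicate 2, lay in 51.4% and 67.8% of promoter regions and in 33.6% of distal regions in replicate 1 and 160 of 432 in replicate 2. H3K27me3 peaks lay in 90.3% and 91.6% of promoter regions and in 83.3% and 79.2% of distal ones. MTF2, another Polycomb-like protein, had peaks in 68.5% of promoter and 47.5% of distal regions in replicate 1, and in 99.5% and 85.9% in replicate 2, whose list holds 32254 peaks. EZH2 and MTF2 thus lay more often in promoter than in distal regions in each replicate. Promoter regions were also wider, with medians of 2483 and 1858 bp, and an overlap of 1 bp was enough. The part of width in this order was not tested. SUZ12 gave no common order, with 7.50% of promoter and 10.4% of distal regions in replicate 1, and 17.6% and 8.33% in replicate 2, where the list holds only 232 peaks. The 17.6% was 9.47% when 50% of the region had to be covered, and the 8.33% was 15.2% without PHF19 replicate 2.

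**Figure D5:**
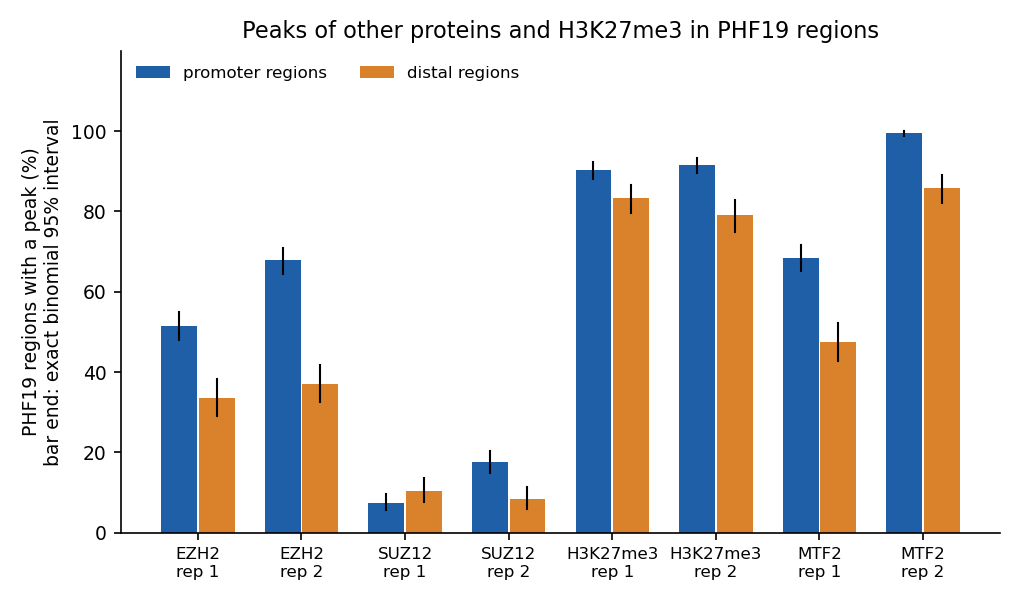
Share of 813 promoter (blue) and 432 distal (orange) PHF19 regions with a peak of EZH2, SUZ12, H3K27me3 or MTF2 in each shCTR replicate list (%), with exact binomial 95% intervals as lines. EZH2, H3K27me3 and MTF2 are higher in promoter regions in both replicates, and SUZ12 in replicate 2 only.

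Regions with the highest enrichment carried these peaks most often, but the shares did not fall evenly below them. Among the 311 regions with the highest enrichment 73.3% had a replicate 1 EZH2 peak, against 29.3% among the 311 with the lowest. In replicate 2 the EZH2 shares from the highest to the lowest of 4 groups by enrichment were 70.4%, 56.3%, 43.3% and 58.5%, and those of H3K27me3 were 92.6%, 87.5%, 81.7% and 87.5%. A PHF19 peak in both lists was found in 88.1% and 39.2% of the highest and lowest, and these peaks come from the same ChIP libraries as the enrichment. By width the shares were 77.8% with a replicate 1 EZH2 peak in the 311 widest and 19.3% in the 311 narrowest (88.7% and 28.9% in replicate 2), and a wider region has more room for a peak. A peak in every list of all 4 was found in 60 regions, ATF3, IGF2BP3, FOXI3 and CBX8 among them, with a median enrichment of 2.79 and a width of 4479 bp. PAX9, with the highest input, had no EZH2 or SUZ12 peak.

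Regions also lay close together. Chains with gaps of at most 50 kb held 353 regions (28.4%) in 143 groups, 39 of them with 3 or more regions, and those described here were chosen after the counts were seen. SOX2 had 6 regions within 35.0 kb, from 1.46 to 3.35, of which 1 was at a promoter. ZIC5 and ZIC2 had 6 within 40.1 kb, from 1.45 to the 4.26 in LINC00554. EN2 and CNPY1 had 6 within 84.9 kb, none above 2.01. PAX5 had 5, from 1.13 to 3.92, so that strong and weak regions stood side by side.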

How the data were processed

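PHF19 ChIP and input libraries of shCTR cells were read as deposited. Per the submitters' processing notes and the study's methods, the authors mapped reads with Bowtie to hg19, or hg19 with the fly genome dm3 where spike-in chromatin was added, kept uniquely mapped reads, called peaks with MACS for single replicates, and compared both replicates with the inputs in DiffBind. The deposited table holds the authors' mean log2 read concentration of each group per region, not per length, and only regions under their thresholds. Its columns of fold, p and FDR were not used. The deposited replicate 1 list holds a tag count per peak, a unit inferred from its header and whole numbers. The deposited replicate 2 list holds a MACS score whose scale the file does not state. The table's start column is counted from 0, so printed starts are 1 higher. Library depth is unknown.

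Genes came from GENCODE release 44 mapped to GRCh37 (19821 protein-coding genes), and sequence from the GRCh37 genome. Overlap meant at least 1 bp. Shares carry exact binomial 95% intervals and medians order-statistic intervals. No test was run over regions, which are not replicates. Python 3.11.15, numpy 2.4.6, scipy 1.17.1, pysam 0.24.0 and matplotlib 3.10.9 were used, and the code was tested on simulated data. Regions are named by the nearest protein-coding start site. Named regions were the 10 highest by enrichment, the 5 highest by ChIP and by input concentration, the 10 widest, 5 narrowest and 5 strongest distal regions, the 5 strongest peaks of each list, the ChIP-qPCR sites, PRC2 genes, and up to 4 members of each of 29 gene lists. Members and lists were chosen with earlier results of these data known. The repeat word was the most frequent of 12 bases in the 4 highest regions, the second of 2 word rules tried. Alternatives were other promoter windows and start sites, regions in both lists, a covered share of 50%, a score of at least 100, autosomes only and each replicate left out. Peaks of depleted cells, RNA-seq, IgG and the differential tables of other proteins were not used here. Some named regions and sequences are not reported here.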

Additional observations from a re-analysis of the deposited data

How the results depend on the processing

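Of 251 alternative values over 54 results, 209 lay within the 95% interval of the value reported, 41 outside it, and 1, a count of repeat regions, had no interval. Depth is unknown, and regions were chosen by the authors' thresholds on both libraries. No paired analysis was possible because the table gives group means and no value per replicate. The share of promoter regions was 61.7% with windows of 1 kb, 69.8% with 5 kb, 56.4% with only the most upstream start site of a gene, and 74.1% for regions in both lists. In those the medians were 1.80 (promoter) and 1.73 (distal) for log2 enrichment and 2899 and 2380 bp for width, the share of genes was 2.84% and that of homeobox genes 27.4%. The share of genes was 4.68% with regions up to the gene end. Regions covered to 50% by each list were 52.7%. The CpG ratio was 0.68 in the central 300 bases. The earlier word rule gave 2 repeat regions in place of 10, and leaving those 10 out gave a distal median of 1.52; both were added after the data were seen.

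At 50% of the region covered, the promoter shares were 63.1% (EZH2 replicate 2), 5.54% and 9.47% (SUZ12 replicates 1 and 2) and 87.2% (H3K27me3 replicate 2), and the distal shares 7.41% and 5.56% (SUZ12).

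With either PHF19 list left out (regions kept if the remaining list had a peak), the share of promoter regions was 67.4 to 71.4%, the median log2 enrichment 1.63 to 1.80 at promoters and 1.53 to 1.69 in distal regions, the width 2506 to 2888 bp and 1973 to 2198 bp, the share of genes 2.87 to 4.03% and that of homeobox genes 27.4 to 36.9%. Promoter shares of replicates 1 and 2 were 51.9 to 60.7% and 68.4 to 75.2% for EZH2, 7.57 to 10.4% and 17.7 to 22.0% for SUZ12, 69.0 to 73.9% and 99.5 to 100% for MTF2, and 91.8 to 93.9% for H3K27me3 replicate 2. Distal shares were 36.2 to 42.9% and 41.0 to 50.9% for EZH2, 9.23 to 15.2% for SUZ12 replicate 2, 83.9 to 84.9% for H3K27me3 replicate 2, and 51.5 to 58.9% and 89.3 to 91.5% for MTF2. These are values of fewer regions, and the cause of each shift was not tested.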

Other observations

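Features in the following paragraphs were picked out after their values were seen, and no cause was tested. Chromosome X held only 11 regions, but their median enrichment was 2.93, against 1.58 over all regions. The median input concentration per kb on chromosome X was 2.30, against 3.65 over all regions, while the ChIP concentration per kb was 5.16, against 5.24. The high enrichment on this chromosome stood beside a low input, which the measure subtracts, and a ChIP value near that of all regions. These are 11 regions kept as enriched by the authors, and why their input was low was not tested. MBNL3, a splicing regulator gene, led with 3.67 (chrX:131622065-131624619), before the coactivator gene CITED1 at 3.59. The MBNL3 region had no EZH2 or SUZ12 peak in any list and an H3K27me3 peak in replicate 1 only. Without chromosome X the share of promoter regions stayed within the interval of the main value.

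Chromosome 14 lay at the other end, with 75 regions, a median enrichment of 1.41 and a median input concentration per kb of 3.90. The 3 highest inputs per kb were all there, at INSM2 (5.38), PAX9 (5.13) and NPAS3 (5.03). Between 33921291 and 34093838 on this chromosome NPAS3 had 9 regions, the longest chain, with enrichments from 1.08 to 1.50. EZH2, SUZ12 and H3K27me3 differed between replicates there and MTF2 (9 and 8 regions) hardly: 7 of the 9 had an EZH2 peak in replicate 1 and 0 in replicate 2, 8 and 0 had a SUZ12 peak, and 9 and 1 had an H3K27me3 peak. Over all regions the shares were 45.2% and 57.1% for EZH2, 8.51% and 14.4% for SUZ12, 87.9% and 87.3% for H3K27me3, and 61.2% and 94.8% for MTF2. A PHF19 peak in both lists was found in 1 of the 9, against 59.9% of all regions.

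Of 1245 regions 88 (7.07%) had no EZH2, SUZ12 or H3K27me3 peak in any shCTR list, 38 at promoters and 50 distal. BMI1, the PRC1 subunit, was the strongest at 3.32 (chr10:22610543-22611924), with a CpG ratio of 0.95 and MTF2 peaks in both replicates. C17orf58 (2.73), TMEM255A (2.72), the blood factor RUNX1 (2.45) and the myosin gene MYO6 (2.30) followed, each with a PHF19 peak in both lists, which only 23 of the 88 had. The promoter regions of this kind had a median CpG ratio of 0.75 and the distal ones 0.23.

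The repeat word was held by places without a called PHF19 peak as well, and reads that map to several places were discarded, so a missing peak does not show that PHF19 is absent there. Of the 44 places with 5 or more copies, 12 (27.3%) had a peak in the longer replicate 2 list, 10 an H3K27me3 peak in replicate 1 and 9 in replicate 2, 10 and 11 an EZH2 peak, 8 and 9 a SUZ12 peak, and 13 (29.5%) and 21 (47.7%) an MTF2 peak. At protein-coding start sites the word was in 2 windows of 300 bases.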
